A study of Mus musculus with 10 samples.

Results

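The 5 Nup214 heterozygous libraries in a set of 10 leukemia stem cell libraries did not read alike: libraries 3, 4 and 5, here HET 3, 4 and 5, stood together and apart from libraries 1 and 2, here HET 1 and 2. All 5 carried the same labels. They came from bone marrow of mice whose acute myeloid leukemia was driven by the fusion oncogene MLL-AF9 and whose genotype was Nup214fl/+,Tie2-Cre, in which Cre deletes the floxed copy of the nucleoporin gene Nup214. The other 5 libraries, here FL, came from MLL-AF9 leukemic mice that carried the floxed allele without Cre and serve as the level to read the heterozygous values against. One sort gate served throughout: cells had to carry CD34, CD16/32 and c-Kit, and to lack Sca-1 and markers of mature blood lineages (Lin). The Tie2 promoter drives Cre in endothelial and blood cells, and only the heterozygous mice carried it, so what Cre did and what Nup214 loss did cannot be told apart. The labels do not say how the fusion was introduced. The labels give no age, sex, harvest day or leukemia for any library and do not say which libraries came from separate mice. Nothing in them separates HET 3, 4 and 5 from HET 1 and 2. The sets were chosen by the expression values themselves, those of granule, globin and Cdkn1a genes among them, so what follows gives the values of each library, with no test of 3 libraries against 2.

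Granulocyte precursors build their granules in an order: azurophil granules with myeloperoxidase and elastase at the promyelocyte stage, secondary granules with lactoferrin at the myelocyte stage, and tertiary granules with gelatinase later. MLL-AF9 leukemia stem cells resemble granulocyte-monocyte progenitors, which stand at the start of that order. C/EBP-epsilon is a transcription factor needed for secondary granule genes.

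Values are the authors' normalized reads, which behave as read counts divided by 1 factor for each library, and are not corrected for gene length, so levels are compared only between libraries. A gene was compared when it read at least 1 in at least 2 of the 5 heterozygous libraries. It was called set apart when HET 3, 4 and 5 all lay on one side of both HET 1 and HET 2 and the mean of log2(normalized reads + 1) differed by at least 1, a 2-fold difference. Recovered depth was 24.6 to 39.1 M reads in HET 3, 4 and 5, 31.1 and 38.2 M in HET 1 and 2, and 20.8 to 30.1 M in FL. HET 3, 4 and 5 detected 19541 to 24889 genes, HET 1 and 2 25684 and 23670, and FL 26913 to 30277. Mitochondrial genes took 2.54% to 3.42% of reads in HET 3, 4 and 5, 5.10% and 5.18% in HET 1 and 2, and 3.01% to 4.00% in FL. Ribosomal protein genes took 5.24% to 6.36% in HET 3, 4 and 5, 9.32% and 9.57% in HET 1 and 2, and 5.65% to 8.06% in FL. These shares followed the same division as the genes below, and their part in it was not tested.

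Nup214 itself did not follow the division. The gene (ENSMUSG00000001855.15) lies on the plus strand of chromosome 2, from 31974436 to 32053975 in the GENCODE M21 annotation of mm10. It read 602, 446 and 492 in HET 3, 4 and 5 and 376 and 504 in HET 1 and 2, against 867, 908, 984, 811 and 959 in FL. The 3 libraries overlapped the other 2, and all 5 heterozygous libraries lay below every FL library. The heterozygous mean was 484 ± 83.1 and the FL mean 906 ± 69.8 (SD, n = 5 each), so the heterozygous mean was 53.4% of the FL mean. The difference of -0.92 on the log2 scale had p = 0.00794 in a two-sided exact permutation test, the smallest p that the 252 assignments allow.

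Of 22077 genes compared, 1784 were set apart higher in HET 3, 4 and 5 (8.08%) and 1506 lower (6.82%). Regardless of size, HET 3, 4 and 5 all lay above HET 1 and 2 for 4162 genes (18.9%) and all below them for 4624 (20.9%). The higher genes reached further: 621 of them differed at least 4-fold, 265 at least 8-fold and 31 at least 64-fold, against 227, 31 and 1 of the lower genes. With a mean of at least 100 normalized reads asked of the set that was higher, 674 genes were higher in HET 3, 4 and 5 and 241 lower. The median difference over all genes compared was -0.05 on the log2 scale. Just inside the 2-fold limit was Snrnp200, with 1652, 1583 and 1530 in HET 3, 4 and 5 and 709 and 887 in HET 1 and 2. Just outside it was Gabpa, with 946, 891 and 663 in HET 3, 4 and 5 and 375 and 451 in HET 1 and 2. On the lower side Slc4a7 was just inside, with 112, 90.3 and 105 in HET 3, 4 and 5 and 188 and 223 in HET 1 and 2, and Vmac just outside, with 95.2, 66.2 and 69.2 in HET 3, 4 and 5 and 141 and 165 in HET 1 and 2.

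**Figure D1:**
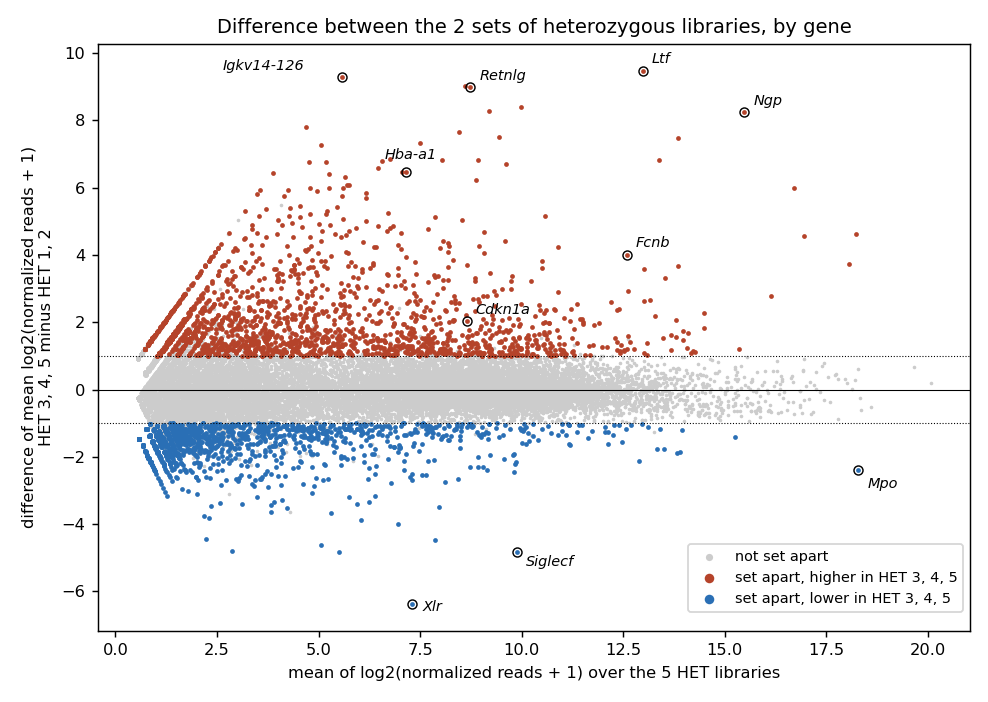
Each point is 1 of the 22077 genes compared, placed by its mean log2(normalized reads + 1) over the 5 heterozygous (HET) libraries and by the difference of mean log2(normalized reads + 1), HET 3, 4 and 5 minus HET 1 and 2. Dotted lines mark a 2-fold difference; the 1784 higher genes reach differences above 9 (Ltf, Igkv14-126), while Xlr at -6.38 is the lowest.

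Over the 9057 genes with a mean of at least 100 over the 10 libraries, the median absolute log2 difference was 0.18 to 0.29 among HET 3, 4 and 5 and 0.16 between HET 1 and 2. Across the division, between HET 3, 4 or 5 and HET 1 or 2, it was 0.32 to 0.41. It was 0.28 to 0.38 between HET 3, 4 or 5 and FL libraries, 0.25 to 0.39 between HET 1 or 2 and FL libraries, and 0.15 to 0.22 among FL libraries. HET 3 lay at 0.41 from HET 1 and from HET 2 and at 0.29 to 0.32 from the FL libraries, and HET 4 at 0.34 from HET 1 and from HET 2 and at 0.28 to 0.31 from FL, so both were farther from HET 1 and 2 than from any FL library. HET 5 lay at 0.34 and 0.32 from HET 1 and 2, against 0.32 to 0.38 from FL, and at 0.29 from HET 3 and 0.25 from HET 4.

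The set-apart genes were not one contrast against FL. Of the 1784 higher genes, HET 3, 4 and 5 lay above every FL library for 776 (43.5%), against 11.6% of all genes compared. HET 1 and 2 lay below every FL library for 815 of the 1784 (45.7%), against 17.6% of all genes. Of the 1506 lower genes, HET 3, 4 and 5 lay below every FL library for 705 (46.8%), against 13.1% of all genes, and HET 1 and 2 above every FL library for 313 (20.8%), against 16.1%. These counts share the FL libraries and the values that chose the genes, so they describe where each set lay and support nothing further.

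Genes of the neutrophil lists were the most numerous among the widest gaps, although the widest was that of the immunoglobulin segment Igkv14-126. The 12 genes with the largest gap between the nearest libraries of the sets, on the higher side, were Igkv14-126, Ltf, Ngp, Ighv11-2, Igkc, Camp, Mmp9, Chil1, Mmp8, Retnlg, Ly6g and Wfdc21, and 8 of them belong to the neutrophil lists. Of 20 secondary and tertiary granule genes, all of which passed the filter, 16 were set apart higher and 0 lower, with a median difference of 3.86. Of 24 mature neutrophil genes, all compared, 20 were higher and 0 lower, with a median difference of 4.77. The lists share members, and since the division was seen in these values, the counts stand beside the 8.08% of all genes only as a description.

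Ltf encodes lactoferrin, the iron-binding protein of secondary granules. It read 108702, 45346 and 286968 in HET 3, 4 and 5 and 131 and 186 in HET 1 and 2, against 1331, 4055, 593, 4057 and 3457 in FL. Every one of HET 3, 4 and 5 was above every FL library, and both HET 1 and HET 2 were below. Ngp, which encodes neutrophilic granule protein, read 408884, 284593 and 781687 in HET 3, 4 and 5 and 1037 and 2113 in HET 1 and 2, against 223791, 389071, 215743, 317790 and 346877 in FL. Here HET 3, 4 and 5 overlapped FL, and HET 1 and 2 stood alone at the low end. Camp, the cathelicidin antimicrobial peptide gene, read 114066, 69229 and 205850 in HET 3, 4 and 5 and 536 and 816 in HET 1 and 2, against 172477 to 344937 in FL. HET 1 and HET 2 were again the lowest, but HET 3 and HET 4 also lay below every FL library, and only HET 5 lay within the FL range.

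Of the other leading neutrophil genes, Retnlg and Mmp8 followed another order, while the rest followed that of Ltf. Retnlg, which encodes a resistin-like secreted protein of mature neutrophils, read 4218, 747 and 43005 in HET 3, 4 and 5 and 6.68 and 12.3 in HET 1 and 2, against 5.95, 0, 9.37, 4.17 and 18.3 in FL. Mmp8, neutrophil collagenase, read 4955, 872 and 24499 in HET 3, 4 and 5 and 4.77 and 13.1 in HET 1 and 2, against 2.77 to 17.0 in FL. For both genes HET 1 and 2 lay within the FL range, and HET 3, 4 and 5 stood alone. Mmp9, gelatinase B of tertiary granules, read 17262, 2866 and 22590 in HET 3, 4 and 5 and 23.9 and 36.8 in HET 1 and 2, against 116 to 420 in FL. Ly6g, a surface antigen of mouse neutrophils, read 1294, 544 and 3679 in HET 3, 4 and 5 and 4.77 and 11.4 in HET 1 and 2, against 45.3 to 77.4 in FL. Wfdc21, a small whey acidic protein-type secreted factor, read 4274, 2458 and 11719 in HET 3, 4 and 5 and 32.4 and 67.8 in HET 1 and 2, against 138 to 320 in FL. Chil1, a chitinase-like glycoprotein, read 5439, 3268 and 9468 in HET 3, 4 and 5 and 20.04 and 43.3 in HET 1 and 2, against 423 to 798 in FL. In Mmp9, Ly6g, Wfdc21 and Chil1, as in Ltf, HET 1 and 2 lay below every FL library and HET 3, 4 and 5 above every one.

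HET 3, 4 and 5 were not equal among themselves. Of the 24 mature neutrophil genes, 22 were highest in HET 5 and 2 in HET 3, and none peaked in HET 4. The mean of log2(normalized reads + 1) over this list was 13.69, 12.55 and 14.85 in HET 3, 4 and 5 and 8.295 and 9.005 in HET 1 and 2, against 10.86 to 11.38 in FL. The summed level was 3121236, 2603764 and 5328681 normalized reads in HET 3, 4 and 5 and 158238 and 264860 in HET 1 and 2, against 1506104 to 2199043 in FL. In a bulk library, fewer cells of a type and less RNA per cell cannot be told apart.

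**Figure D2:**
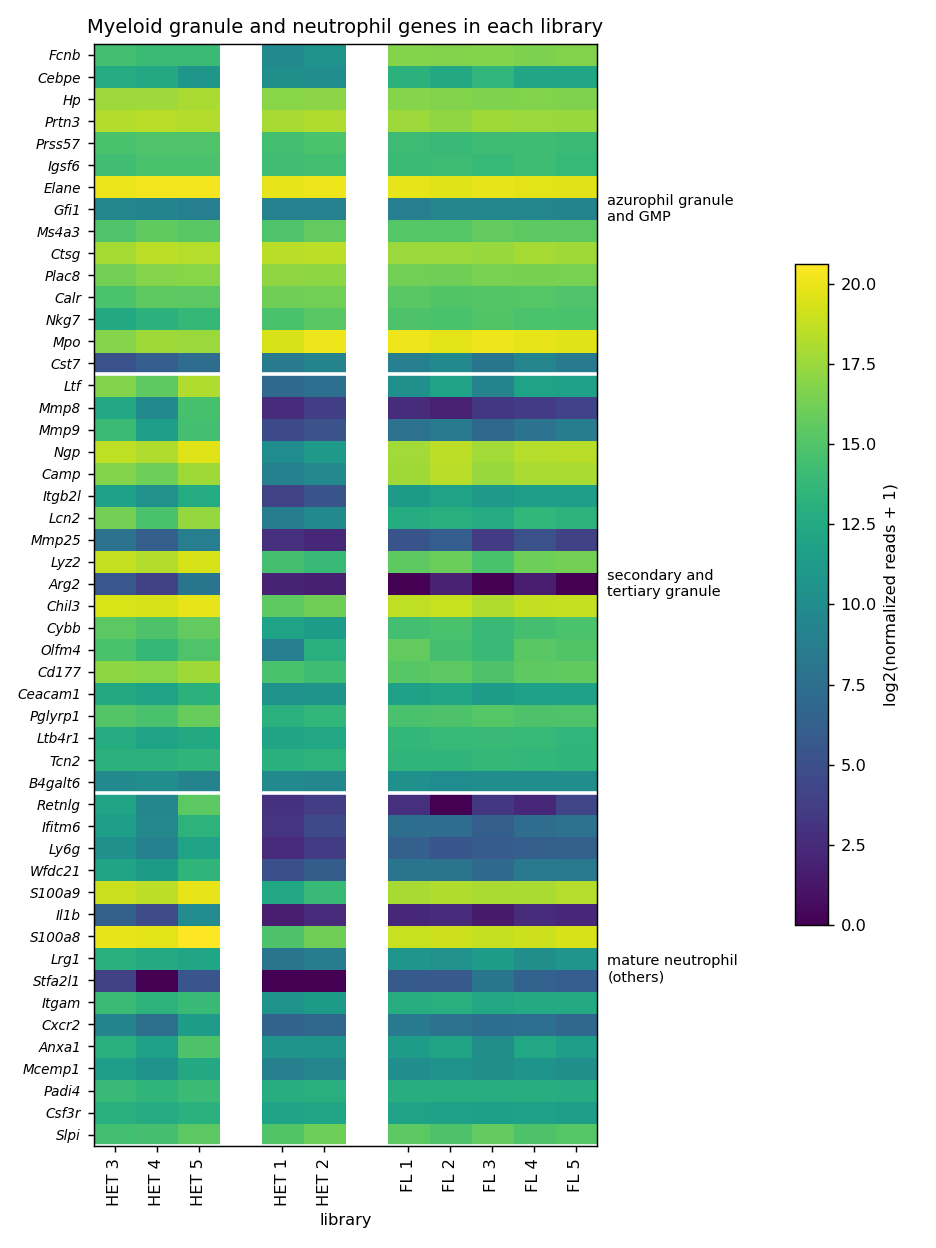
Log2(normalized reads + 1) of the azurophil granule and progenitor genes, the secondary and tertiary granule genes and the other mature neutrophil genes (rows) in HET 3, 4 and 5, HET 1 and 2, and the FL control libraries (columns). Ngp is high in HET 3, 4 and 5 and in FL and low in HET 1 and 2, Retnlg and Mmp8 are high in HET 3, 4 and 5 only, and Elane is at a like level in all 10.

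Promoter sequences of 4 of these genes are shown because the genes fell into different patterns across the libraries, and C/EBP factors are known regulators of granule genes. The sequences are RefSeq's, build GRCm38.p6, from 250 bases before to 50 bases after the annotated start, and capitals mark matches to the C/EBP-type letters TTGCNNAA or, on the other strand, TTNNGCAA, which can overlap each other. Ltf is at chr9:111019042-111019341, Ngp at chr9:110419558-110419857, Retnlg at chr16:48872358-48872657 and Mpo at chr11:87793534-87793833, all on the plus strand.
Ltf: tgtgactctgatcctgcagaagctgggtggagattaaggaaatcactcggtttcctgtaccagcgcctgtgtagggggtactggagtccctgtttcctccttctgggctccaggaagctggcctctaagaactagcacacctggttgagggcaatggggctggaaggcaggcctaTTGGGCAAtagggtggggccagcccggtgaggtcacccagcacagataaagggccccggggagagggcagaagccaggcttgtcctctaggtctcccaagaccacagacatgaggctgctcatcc
Ngp: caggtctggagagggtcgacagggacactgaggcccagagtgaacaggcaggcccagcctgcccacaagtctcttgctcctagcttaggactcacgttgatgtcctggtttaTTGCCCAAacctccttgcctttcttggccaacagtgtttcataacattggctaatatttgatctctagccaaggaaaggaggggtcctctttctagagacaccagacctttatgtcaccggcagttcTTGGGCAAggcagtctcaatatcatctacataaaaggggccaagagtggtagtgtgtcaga
Retnlg: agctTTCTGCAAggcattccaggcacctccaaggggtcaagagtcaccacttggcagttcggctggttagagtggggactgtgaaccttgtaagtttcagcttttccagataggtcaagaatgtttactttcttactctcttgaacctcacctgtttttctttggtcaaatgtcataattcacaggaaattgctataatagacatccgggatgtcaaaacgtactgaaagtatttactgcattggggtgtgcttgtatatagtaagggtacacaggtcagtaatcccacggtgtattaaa
Mpo: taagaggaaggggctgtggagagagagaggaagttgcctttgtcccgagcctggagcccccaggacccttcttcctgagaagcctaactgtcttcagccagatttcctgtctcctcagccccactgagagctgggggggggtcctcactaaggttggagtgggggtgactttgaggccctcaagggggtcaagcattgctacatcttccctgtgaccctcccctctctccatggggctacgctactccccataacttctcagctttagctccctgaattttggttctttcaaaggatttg
Ltf held 1 match, Ngp 2, Retnlg 1 and Mpo 0 in this window. Of the 36 genes on the neutrophil lists, 30 were found in the RefSeq table with 31 promoters, of which 9 held a match (29.0%), against 3547 of all 32851 promoters (10.8%). The share was 11.997% for promoters of genes set apart higher and 11.9% for those set apart lower. A match is a run of letters and not a binding site, and the absence of one in Mpo says only that these letters were not in its window. GENCODE M21 starts Mpo at 87793581, so by that annotation most of the Mpo window lies after the start of the gene.

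Azurophil granule genes, made earlier in the same lineage, gave a mixed account. Mpo, which encodes myeloperoxidase, read 118362, 203243 and 182385 in HET 3, 4 and 5 and 677447 and 1102477 in HET 1 and 2, against 1130912, 881294, 1113633, 915338 and 813165 in FL. HET 3, 4 and 5 were the 3 lowest of the 10 libraries, and HET 2 lay within the FL range. Of 15 azurophil granule and granulocyte-monocyte progenitor genes compared, 2 were set apart higher and 3 lower, with a median difference of 0.09. These were 13.3% and 20%, against 8.08% and 6.82% of all genes compared. Nkg7, a membrane protein of cytotoxic granules, read 5735, 9595 and 13524 in HET 3, 4 and 5 and 26461 and 40818 in HET 1 and 2, against 26365 to 32470 in FL. Cst7, the cysteine protease inhibitor cystatin F, read 34.9, 69.7 and 160 in HET 3, 4 and 5 and 335 and 592 in HET 1 and 2, against 255 to 943 in FL.

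The serine proteases of azurophil granules, chosen here after their values were seen, were not set apart. Elane, neutrophil elastase, read 1026052, 1242111 and 1229743 in HET 3, 4 and 5 and 918916 and 1120127 in HET 1 and 2, against 796831 to 953583 in FL. Its log2 difference between the sets was 0.20, that of Prtn3 (proteinase 3) was 0.27 and that of Ctsg (cathepsin G) was -0.26, and none was set apart. Fcnb, a ficolin of immature neutrophils, read 22410, 16834 and 17248 in HET 3, 4 and 5 and 929 and 1445 in HET 1 and 2, against 111957, 107065, 114692, 97477 and 105116 in FL. All 5 heterozygous libraries lay below every FL library, and Fcnb fell by 4.12 on the log2 scale in the limma fit of genotype (Benjamini-Hochberg adjusted p = 0.00669). Cebpe, which encodes C/EBP-epsilon, read 6635, 5389 and 1931 in HET 3, 4 and 5 and 1249 and 1123 in HET 1 and 2, against 4543 to 11884 in FL.

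**Figure D3:**
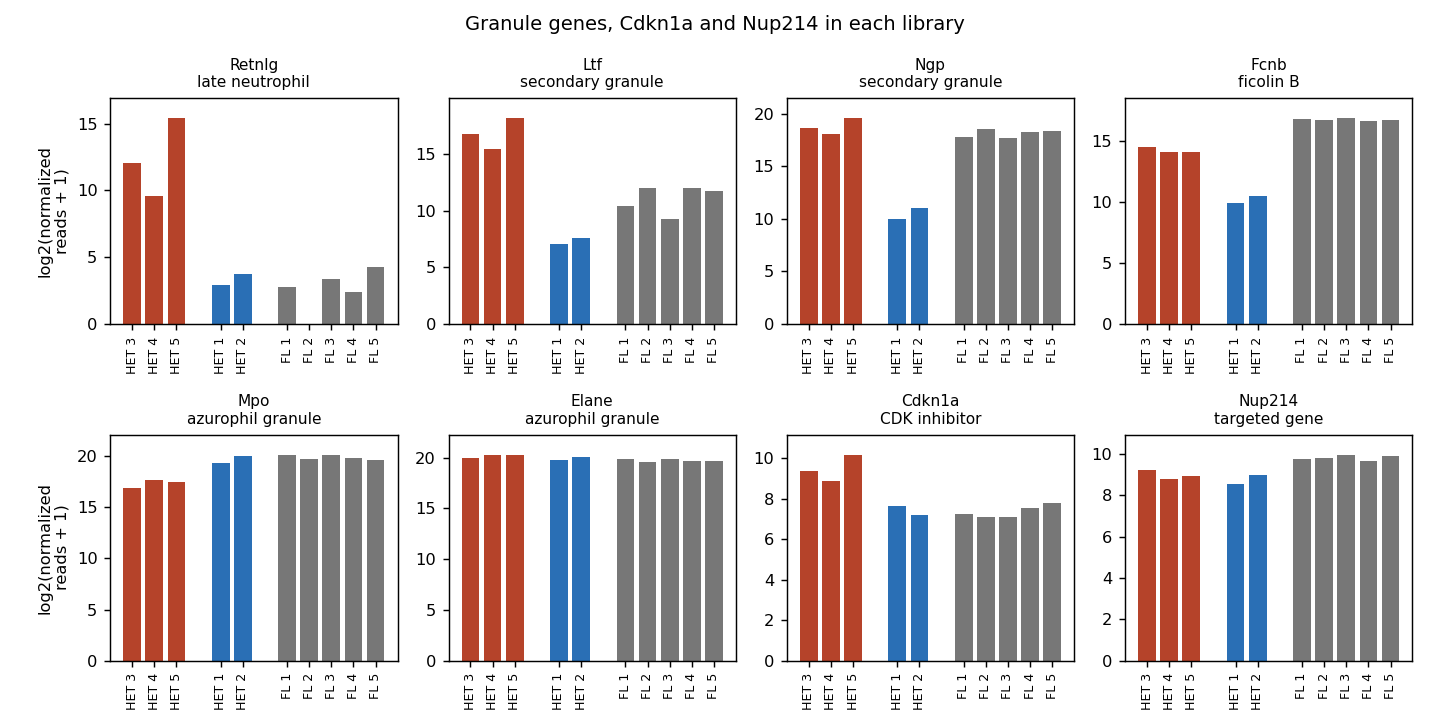
Bars give log2(normalized reads + 1) of 8 genes in each library, with HET 3, 4 and 5 (red) left, HET 1 and 2 (blue) in the middle and FL controls (grey) right. Retnlg is high in HET 3, 4 and 5 only, Ngp and Fcnb are low in HET 1 and 2, Mpo is low in HET 3, 4 and 5, and Elane and Nup214 show no such division.

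Surface genes of the sort were read next. The labels name the cell type as hematopoietic stem cell. Kit, the c-Kit receptor, read 1097, 1152 and 673 in HET 3, 4 and 5 and 1271 and 1676 in HET 1 and 2, against 1822 to 2820 in FL, and was not set apart. Cd34 read 71.4, 81.7 and 175 in HET 3, 4 and 5 and 159 and 394 in HET 1 and 2, against 169 to 410 in FL. The stem cell markers Hlf and Procr were near 0, at most 3.44 and 2.58 across the 5 heterozygous libraries. The stem and early progenitor list to which they belong was not. Its summed level was 15609, 15495 and 12088 in HET 3, 4 and 5. It was 16542 and 16192 in HET 1 and 2, against 11888 to 14162 in FL. The highly read members Hoxa9, Meis1 and Mecom carried most of this sum, so it says little of the other members. Over the 16 members compared, the median difference between the sets was -0.51. Of 16 sort genes compared, 5 were set apart higher and 2 lower, beside 8.08% and 6.82% of all genes compared. Itgam, the CD11b integrin chain common in lineage cocktails, read 16832, 10338 and 16129 in HET 3, 4 and 5 and 1441 and 2362 in HET 1 and 2, against 5340 to 7792 in FL. Fcgr3, which encodes CD16 and was added after its values were seen, read 4501, 6549 and 12366 in HET 3, 4 and 5 and 30703 and 19584 in HET 1 and 2, against 6177 to 13844 in FL.

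Some genes of other blood lineages were also set apart higher in HET 3, 4 and 5, and their counts below stand beside 8.08% higher and 6.82% lower among all genes compared. Of 19 erythroid genes in the table, 18 were compared, 10 were set apart higher and 0 lower, with a median difference of 2.51, or 1.61 with the 3 genes at 0 in both HET 1 and HET 2 set to 3 reads there. Hba-a1 encodes alpha-globin. It read 801, 939 and 824 in HET 3, 4 and 5 and 1.91 and 31.1 in HET 1 and 2, against 14.9, 0, 4.69, 1.04 and 6.55 in FL. Unlike the neutrophil genes it was at nearly one level in the 3 libraries. Hbb-bs, a beta-globin gene, read 624, 694 and 558 in HET 3, 4 and 5 and 0 and 31.1 in HET 1 and 2, against 2.09 to 8.93 in FL. Globin genes, like immunoglobulin segments and the Xlr family, have close copies that share reads, so the level of any one copy is uncertain. The erythroid regulators Gata1, Klf1 and Epor, picked after their values were seen, read at most 4.61, 4.76 and 3.17 in HET 3, 4 and 5 and were not set apart. The summed level of the list was 2848, 3149 and 2755 in HET 3, 4 and 5 and 314 and 435 in HET 1 and 2, against 319 to 409 in FL.

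Of 14 megakaryocyte genes, 9 were compared, and 4 were higher and 0 lower. Among the 4, Pf4 and Gp1bb read at most 6.15 and 12.7 in the 5 heterozygous libraries. For Gp1bb all 5 lay below the FL range of 28.6 to 106. The summed level of the list was 417, 302 and 295 in HET 3, 4 and 5 and 149 and 191 in HET 1 and 2, against 319 to 464 in FL. Gp9, a platelet glycoprotein, read 225, 134 and 151 in HET 3, 4 and 5 and 24.8 and 31.1 in HET 1 and 2, against 126 to 191 in FL. Here HET 3, 4 and 5 lay in or above the FL range and HET 1 and 2 below it. Ppbp, the platelet basic protein gene, was at 0 in all 5. Of 15 mast cell, basophil and eosinophil genes, 12 were compared, 4 were higher and 1 lower. Epx, eosinophil peroxidase, read 121, 74.0 and 73.8 in HET 3, 4 and 5 and 0 and 1.63 in HET 1 and 2, against 0 to 5.95 in FL. Prg2, the eosinophil major basic protein, read 448, 272 and 555 in HET 3, 4 and 5 and 16.2 and 23.7 in HET 1 and 2, against 20.3 to 58.1 in FL.

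Immunoglobulin genes led the B-lineage differences. Of 15 B cell genes, 9 were set apart higher and 0 lower. Igkc, the kappa light chain constant region, read 3253, 7411 and 8149 in HET 3, 4 and 5 and 9.54 and 31.9 in HET 1 and 2, against 0, 38.8, 4.69, 52.2 and 320 in FL. Jchain, which joins secreted IgA and IgM, read 329, 568 and 204 in HET 3, 4 and 5 and 3.82 and 27.0 in HET 1 and 2, against 0 to 40.6 in FL. Pax5, the B cell identity factor, read at most 4.61 in HET 3, 4 and 5 and was not set apart.

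More immunoglobulin variable segments had reads in HET 3, 4 and 5: 55, 53 and 46 read above 0 there and 18 and 20 in HET 1 and 2, against 16 to 48 in FL. Igkv14-126, with the largest gap of the 12 leading higher genes, read 436, 300 and 1876 in HET 3, 4 and 5 and 0 in HET 1, HET 2 and all 5 FL libraries. Against a floor of 3 reads per library, it was at least 105-fold higher in HET 3, 4 and 5 than in HET 1 and 2. Ighv11-2 read 112, 131 and 747 in HET 3, 4 and 5 and 0 in both HET 1 and HET 2, against at most 1.31 in FL, and was at least 39.1-fold higher by the same floor. As background, in the mouse these 2 segments are known as a recurrent heavy and light chain pair of B-1 cells. Segments reading at least 10 numbered 14, 27 and 21 in HET 3, 4 and 5 and 1 and 2 in HET 1 and 2, against 1 to 6 in FL, of 346 in the table. Their summed level was 1502, 2271 and 4410 in HET 3, 4 and 5 and 49.6 and 66.2 in HET 1 and 2, against 71.2 to 300.0 in FL. Igkv14-126 made up 29.1%, 13.2% and 42.5% of that sum in HET 3, 4 and 5. Igha, the IgA constant region, chosen after its values were seen, read 1274, 1527 and 461 in HET 3, 4 and 5 and 5.73 and 113 in HET 1 and 2, against 0 to 176 in FL.

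**Figure D4:**
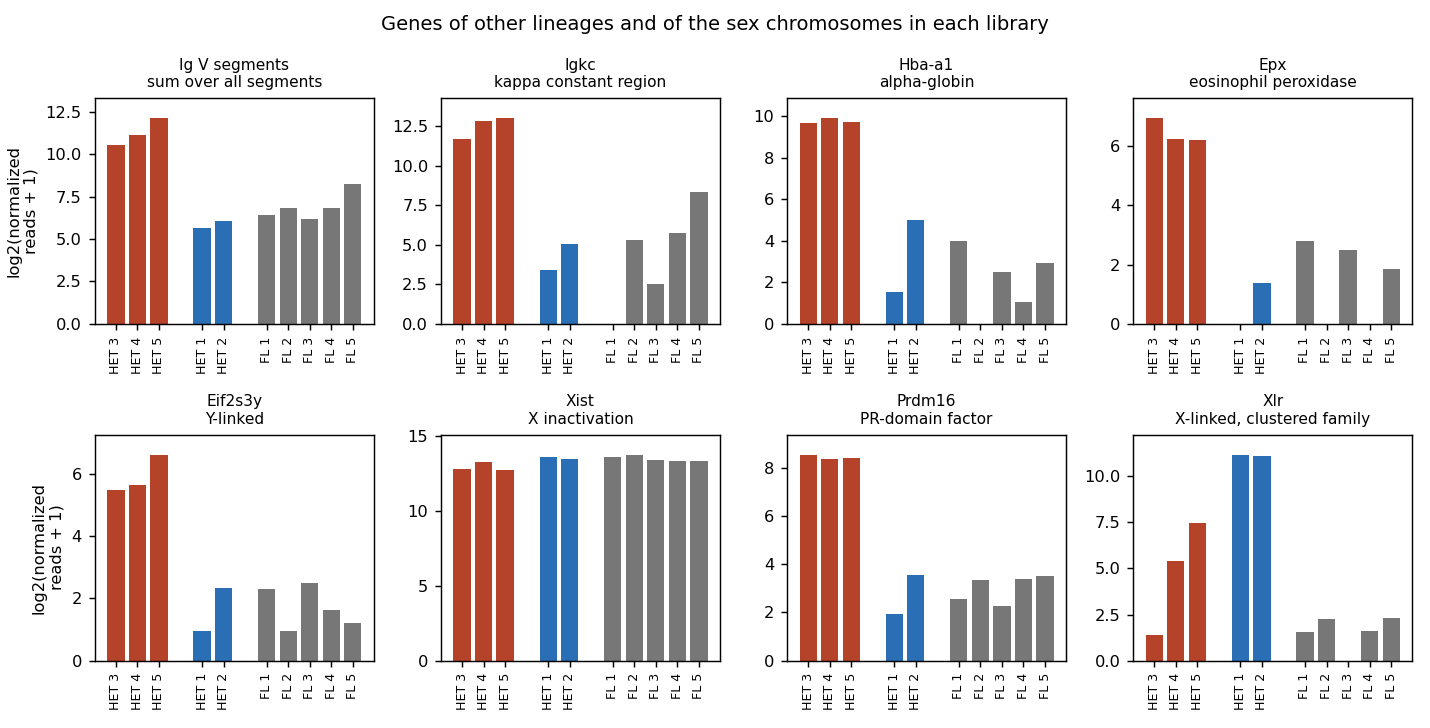
Bars give log2(normalized reads + 1) of 7 genes and of the sum over immunoglobulin variable segments in each library, with HET 3, 4 and 5 (red) left, HET 1 and 2 (blue) in the middle and FL controls (grey) right. Immunoglobulin reads, Hba-a1, Epx, the Y-linked gene Eif2s3y and Prdm16 are highest in HET 3, 4 and 5, Xlr is highest in HET 1 and 2, and Xist is abundant in all 10.

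Of 23 monocyte and macrophage genes, 13 were higher and 1 lower, with a median difference of 1.21. Lyz2, lysozyme M, read 444441, 303628 and 664560 in HET 3, 4 and 5 and 23513 and 15040 in HET 1 and 2, against 26462 to 81517 in FL. F13a1, the A chain of coagulation factor XIII, read 25572, 37343 and 27350 in HET 3, 4 and 5 and 3167 and 2758 in HET 1 and 2, against 904 to 2668 in FL. Both sets of heterozygous libraries lay above FL for this gene, and it rose by 2.71 in the genotype fit (limma adjusted p = 0.0229), above every FL library in 5 of 5. The 1 lower gene was Ly6c2, a monocyte surface antigen, with 18429, 24913 and 39853 in HET 3, 4 and 5 and 56999 and 88057 in HET 1 and 2, against 74869 to 111112 in FL. T and NK cell markers were scarce: the summed level of 16 genes was 46.8, 49.9 and 72.3 in HET 3, 4 and 5 and 31.5 and 19.6 in HET 1 and 2, against 29.6 to 50.1 in FL. Of the 10 of them compared, 2 were higher and 0 lower, and of 10 endothelial and stromal genes compared 1 was higher and 1 lower. Of 12 dendritic cell genes compared, 2 were higher and 1 lower. The part that cells of other types had in the differences between the sets was not tested.

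MHC class II genes divided within their own pathway. Of 10 genes on the list, 4 were higher and 3 lower, beside 8.08% and 6.82% of all genes compared. Cd74, the invariant chain, read 465, 709 and 750 in HET 3, 4 and 5 and 63.0 and 167 in HET 1 and 2, against 48.0 to 142 in FL. The classical chain gene H2-Aa read 130, 181 and 351 in HET 3, 4 and 5 and 30.5 and 67.0 in HET 1 and 2, against 16.9 to 52.2 in FL. H2-DMa, a chain of the peptide-loading chaperone and chosen after its values were seen, went the other way, with 351, 399 and 827 in HET 3, 4 and 5 and 2257 and 2319 in HET 1 and 2, against 1018 to 1341 in FL.

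Reads of Y-linked genes were low but also divided. Eif2s3y, a translation initiation factor gene, read 44.4, 49.0 and 96.9 in HET 3, 4 and 5 and 0.954 and 4.09 in HET 1 and 2, against 0.924 to 4.69 in FL. Ddx3y, a helicase gene, read 36.5, 30.1 and 64.6 in HET 3, 4 and 5 and 3.82 and 3.27 in HET 1 and 2, against 0 to 6.26 in FL. Xist, the noncoding RNA of the inactive X chromosome, read 6868, 9634 and 6807 in HET 3, 4 and 5 and 12361 and 11248 in HET 1 and 2, against 10171 to 13306 in FL. Xist was thus abundant in all 10 libraries, and Eif2s3y and Ddx3y were highest in the 3 libraries with the lowest Xist. The Y-linked histone demethylase gene Kdm5d read 9.52, 7.74 and 7.69 in HET 3, 4 and 5 and 1.91 and 0.817 in HET 1 and 2, against 5.22 to 16.9 in FL, so it was highest in FL 1. Uty, also Y-linked, read 10.3, 15.5 and 27.7 in HET 3, 4 and 5 and 0 and 3.27 in HET 1 and 2. Its FL range was 6.56 to 25.8, so FL 1 lay above HET 3 and HET 4. These genes have close X-linked relatives, and strand is not described in the sources used here, so Xist cannot be told apart from its antisense partner Tsix.

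Cdkn1a, which encodes the inhibitor p21 and is a target of p53, read 658, 467 and 1142 in HET 3, 4 and 5 and 200 and 145 in HET 1 and 2, against 152, 136, 134, 187 and 223 in FL. HET 3, 4 and 5 were the 3 highest libraries, and HET 1 and 2 lay within the FL range. Of 7 inhibitors of cyclin-dependent kinases, 3 were not set apart and 4 were higher, among them Cdkn2c (p18), with 1071, 808 and 637 in HET 3, 4 and 5 and 288 and 192 in HET 1 and 2, against 78.4 to 428 in FL. Cdkn1c (p57) read 575, 550 and 105 in HET 3, 4 and 5 and 79.2 and 18.8 in HET 1 and 2, against 156 to 481 in FL. Of 30 G1/S and replication genes 0 were set apart in either direction, and likewise 0 of 30 G2/M genes, with median differences of -0.08 and -0.13. Among all genes compared 8.08% were set apart higher and 6.82% lower. The G2/M mean of log2(normalized reads + 1) was 11.31, 11.93 and 11.59 in HET 3, 4 and 5 and 11.49 and 11.89 in HET 1 and 2, against 11.45 to 11.71 in FL.

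Of 28 p53 target genes, 9 were higher and 0 lower, with a median difference of 0.55. This count stands beside 8.08% higher and 6.82% lower among all genes compared. Trp53inp1, a p53-induced nuclear protein, read 483, 336 and 280 in HET 3, 4 and 5 and 41.0 and 57.2 in HET 1 and 2, against 54.5 to 117 in FL. Plk3, a polo-like kinase of the stress response, read 125, 69.7 and 95.3 in HET 3, 4 and 5 and 23.9 and 18.0 in HET 1 and 2, against 23.0 to 38.7 in FL. Mdm2, the ubiquitin ligase of p53, and Bax, its proapoptotic target, both added after their values were seen, differed by only 0.55 and 0.35 and were not set apart.

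The counts of immediate early and inflammatory genes stand beside 8.08% higher among all genes compared. Of 21 AP-1 and immediate early genes, 11 were higher and 0 lower, with a median difference of 1.66, or 1.12 with the 2 genes at 0 in HET 1 and 2 set to 3 reads. Nr4a1, an orphan nuclear receptor, read 74.6, 27.5 and 178 in HET 3, 4 and 5 and 1.91 and 2.45 in HET 1 and 2, against 8.44 to 30.3 in FL. Klf2, a zinc finger factor, read 227, 55.9 and 232 in HET 3, 4 and 5 and 19.1 and 14.7 in HET 1 and 2, against 6.56 to 65.5 in FL. Of 26 NF-kB and inflammatory genes, 14 were higher and 0 lower, with a median difference of 1.11. Il1b, the interleukin-1 beta gene, read 77.8, 24.9 and 982 in HET 3, 4 and 5 and 1.91 and 4.90 in HET 1 and 2, against 1.87 to 5.22 in FL. Cxcl2, a neutrophil-attracting chemokine, read 199, 14.6 and 546 in HET 3, 4 and 5 and 6.68 and 6.54 in HET 1 and 2, against 0 to 17.0 in FL. HET 4 was the lowest of its 3 libraries for all 4 of these genes, as it was for Retnlg.

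Of 34 type I interferon response genes, 13 were higher and 0 lower, with a median difference of 0.78. Counts in this paragraph stand beside 8.08% higher and 6.82% lower among all genes compared. Cxcl10 read 114, 105 and 120 in HET 3, 4 and 5 and 53.4 and 41.7 in HET 1 and 2, against 12.01 to 40.6 in FL, and rose in the genotype fit by 1.92 (limma adjusted p = 0.00749, 5 of 5 libraries). Ddx58, which encodes the RNA sensor RIG-I, read 798, 605 and 707 in HET 3, 4 and 5 and 238 and 315 in HET 1 and 2, against 276 to 333 in FL. Of 17 heat shock genes compared 3 were higher, while the 32 genes of the unfolded protein response and the integrated stress response held 5 higher and 2 lower. Chac1, a glutathione-degrading enzyme induced by ATF4, read 256, 168 and 172 in HET 3, 4 and 5 and 43.9 and 36.0 in HET 1 and 2, against 63.7 to 93.3 in FL.

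The series' title names ferroptosis, an iron-dependent death by lipid peroxidation. Of 32 driver and marker genes, 31 were compared, 6 were higher and 1 lower, with a median difference of 0.29. The counts here and in the next paragraph stand beside 8.08% higher and 6.82% lower among all genes compared. The higher genes included the lipoxygenase genes Alox5 and Alox15, which also belong to granulocytes. Alox5 read 2434, 1091 and 3407 in HET 3, 4 and 5 and 183 and 273 in HET 1 and 2, against 697 to 1342 in FL. Alox15 read 34.9, 27.5 and 66.1 in HET 3, 4 and 5 and 0 and 1.63 in HET 1 and 2, against 0 to 2.81 in FL. Ptgs2, cyclooxygenase 2, read 73.0, 19.8 and 96.9 in HET 3, 4 and 5 and 3.82 and 3.27 in HET 1 and 2, against 0 to 2.09 in FL. It rose by 3.36 in the genotype fit (limma adjusted p = 0.0221) and was above every FL library in 5 of 5. In HET 1 and 2 that margin was a few reads, with 1 read worth 0.954 and 0.817 there. Cybb, the catalytic chain of the phagocyte oxidase and a granule membrane protein of neutrophils, read 43384, 29744 and 52051 in HET 3, 4 and 5 and 4060 and 2488 in HET 1 and 2, against 16071 to 27396 in FL.

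The list of ferroptosis suppressors held 33 genes, of which 6 were set apart higher and 4 lower, with a median difference of -0.13. Mt2, a metallothionein, read 544, 658 and 850 in HET 3, 4 and 5 and 153 and 81.7 in HET 1 and 2, against 17.6 to 47.0 in FL, and rose by 3.40 in the genotype fit (limma adjusted p = 0.00347, 5 of 5 libraries). Scd2, a fatty acid desaturase, read 1347, 1146 and 787 in HET 3, 4 and 5 and 336 and 482 in HET 1 and 2, against 1118 to 2116 in FL. Aifm2, which encodes FSP1 and was chosen after its values were seen, read 81.7, 72.2 and 105 in HET 3, 4 and 5 and 185 and 190 in HET 1 and 2, against 202 to 279 in FL. Of 31 iron and heme genes 5 were higher and 1 lower, among them Slc40a1, the iron exporter ferroportin, with 618, 457 and 836 in HET 3, 4 and 5 and 210 and 262 in HET 1 and 2, against 211 to 530 in FL. Of 35 NRF2 and glutathione genes compared, 4 were higher and 1 lower (11.4% and 2.86%), against 8.08% and 6.82% of all genes compared. Mgst2, a microsomal glutathione transferase, read 3854, 4120 and 3372 in HET 3, 4 and 5 and 669 and 1131 in HET 1 and 2, against 2536 to 3049 in FL.

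Among metabolic genes, 4 of 23 glycolysis genes compared were higher and 0 lower, beside 8.08% and 6.82% of all genes compared. Ldhb, a lactate dehydrogenase chain, read 2739, 2854 and 2717 in HET 3, 4 and 5 and 342 and 676 in HET 1 and 2, against 299 to 572 in FL. Slc2a3, the glucose transporter GLUT3, read 819, 288 and 2145 in HET 3, 4 and 5 and 54.4 and 72.7 in HET 1 and 2, against 410 to 715 in FL. The next counts, of few genes each, stand beside 8.08% higher and 6.82% lower among all genes compared. Of 17 hypoxia genes compared 2 were higher and 1 lower, of 36 lysosome and autophagy genes 4 and 0, and of 23 cholesterol synthesis genes 0 and 1. Of 30 ribosome biogenesis genes 2 were lower and 0 higher, with a median difference of -0.47. Npm1, the nucleolar chaperone nucleophosmin, read 8898, 13030 and 12240 in HET 3, 4 and 5 and 25695 and 25983 in HET 1 and 2, against 10824 to 14542 in FL. The 13 mitochondrially encoded genes had a median difference of -0.67 and none was set apart. HET 1 and 2 lay above every FL library for 13 of 13, against 16.1% of all genes compared.

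**Figure D5:**
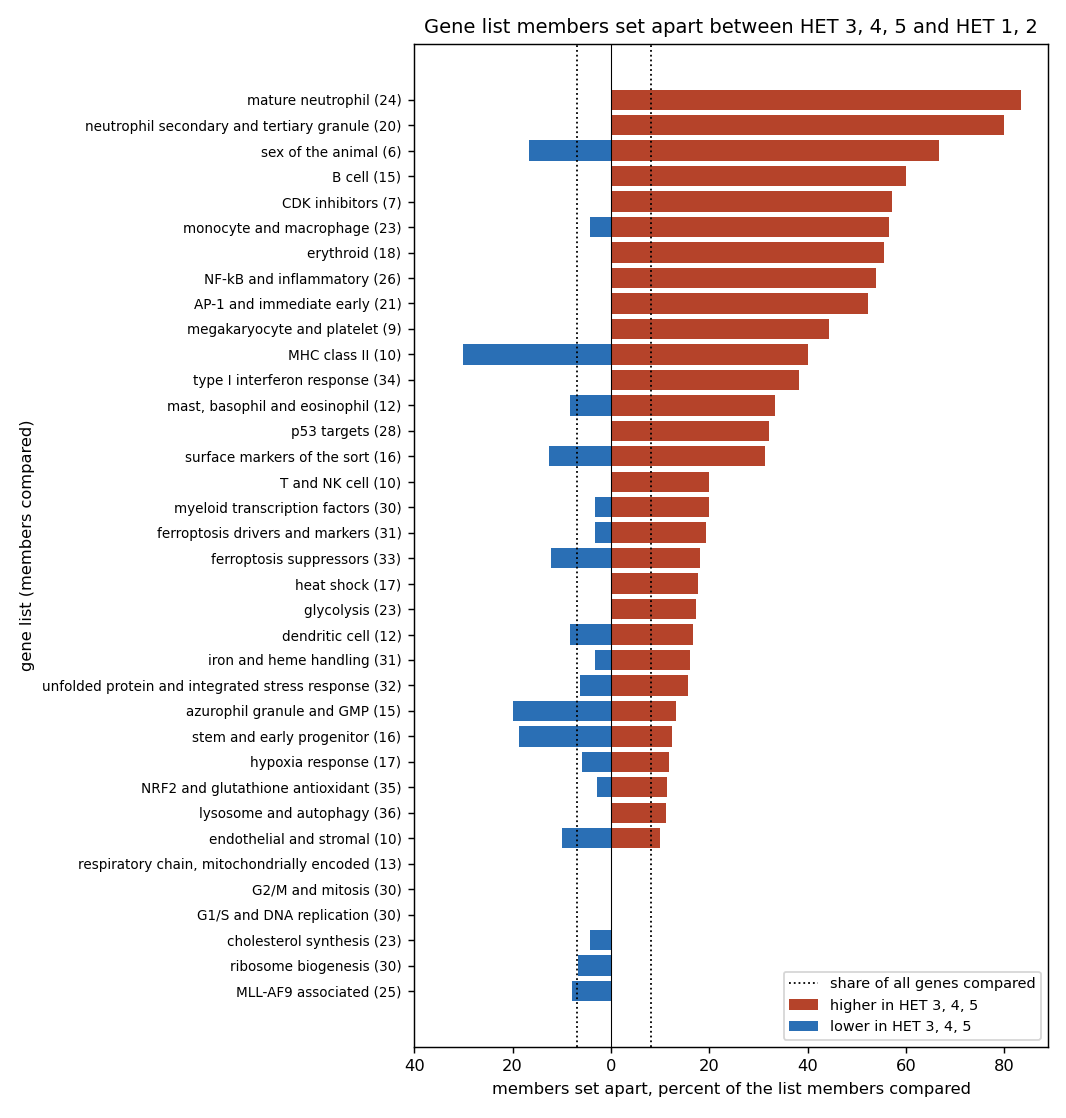
For each gene list, bars to the right give the percentage of its compared members set apart higher in HET 3, 4 and 5 than in HET 1 and 2, and bars to the left the percentage set apart lower, with the number compared in brackets. Dotted lines mark 8.08% and 6.82%, the shares among all 22077 genes; neutrophil lists reach 83.3% and 80%, and the cell cycle lists have no bar.

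Of 25 genes associated with the MLL-AF9 fusion, 0 were higher and 2 lower (8%), with a median difference of -0.19. Counts in this paragraph stand beside 8.08% higher and 6.82% lower among all genes compared. Of the 2 lower genes, Hoxa11 was at a few reads: 0, 2.58 and 0 in HET 3, 4 and 5 and 4.77 and 7.36 in HET 1 and 2. Meis1 and Hoxa9, its best known targets, were chosen after their values were seen. Meis1 read 4450, 4032 and 4351 in HET 3, 4 and 5 and 4118 and 4220 in HET 1 and 2, against 2794 to 4348 in FL. Hoxa9 read 4533, 5358 and 3715 in HET 3, 4 and 5 and 6928 and 6515 in HET 1 and 2, against 4422 to 5004 in FL. Of 16 stem and early progenitor genes compared, 2 were higher and 3 lower. Of 30 myeloid transcription factors compared, 6 were higher and 1 lower, among them Id2, an inhibitor of basic helix-loop-helix factors, with 1891, 1338 and 1807 in HET 3, 4 and 5 and 571 and 349 in HET 1 and 2, against 831 to 1979 in FL.

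A pair of related zinc finger genes, also chosen after their values were seen, was uniformly high in HET 3, 4 and 5. Mecom, which encodes EVI1, a stem cell factor recurrently activated in myeloid leukemia, read 2302, 1974 and 1613 in HET 3, 4 and 5 and 210 and 281 in HET 1 and 2, against 374, 195, 386, 274 and 414 in FL. Its relative Prdm16 read 367, 327 and 338 in HET 3, 4 and 5 and 2.86 and 10.6 in HET 1 and 2, against 4.96, 9.24, 3.75, 9.39 and 10.5 in FL. Pcdh11x, an X-linked protocadherin gene, read 3013, 2290 and 2615 in HET 3, 4 and 5 and 10.5 and 107 in HET 1 and 2, against 16.9 to 191 in FL. For all 3 genes HET 3, 4 and 5 lay above every other library. HET 1 and 2 lay within or below the FL range, except that HET 2 was just above it for Prdm16.

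The 12 genes with the largest gap on the lower side, of at least 100 reads on average in HET 1 and 2, held 0 neutrophil list members. They were Xlr, Siglecf, Psma8, Igf2bp3, Aspa, Ccdc154, Fam174b, Sh2d1b1, Spns3, Stag3, Ubash3a and Mzf1. Xlr, an X-linked gene with near-identical relatives, read 1.59, 41.3 and 175 in HET 3, 4 and 5 and 2258 and 2211 in HET 1 and 2, against 1.98, 3.70, 0, 2.09 and 3.93 in FL. It rose by 5.75 in the genotype fit (limma adjusted p = 0.0261), with every heterozygous library but HET 3 above all FL libraries. Siglecf, a sialic acid receptor of mouse eosinophils, read 142, 166 and 629 in HET 3, 4 and 5 and 6596 and 7406 in HET 1 and 2, against 3466, 4038, 2938, 3811 and 2165 in FL. It was low in the libraries in which Epx and Prg2 were high. Igf2bp3, a fetal RNA-binding protein known from MLL-rearranged leukemia, read 55.5, 105 and 140 in HET 3, 4 and 5 and 1034 and 1073 in HET 1 and 2, against 1440, 1516, 1639, 1764 and 1565 in FL. All 5 heterozygous libraries lay below FL, and it fell by 2.67 in the genotype fit (limma adjusted p = 0.0259).

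Stag3, a meiotic cohesin subunit, read 34.9, 37.8 and 214 in HET 3, 4 and 5 and 934 and 2379 in HET 1 and 2, against 396 to 938 in FL. Psma8, a proteasome subunit of the testis, read 1.59, 14.6 and 39.98 in HET 3, 4 and 5 and 323 and 352 in HET 1 and 2, against 191 to 253 in FL. HET 3, 4 and 5 lay below every FL library for both, and HET 1 and 2 within or above the FL range. Ubash3a, a suppressor of T cell receptor signalling, read 248, 237 and 288 in HET 3, 4 and 5 and 1224 and 1299 in HET 1 and 2, against 943 to 1457 in FL. Sh2d1b1, an adaptor of SLAM receptors, read 12.7, 14.6 and 53.8 in HET 3, 4 and 5 and 384 and 284 in HET 1 and 2, against 256 to 404 in FL. Mzf1, a myeloid zinc finger factor, read 33.3, 43.0 and 87.6 in HET 3, 4 and 5 and 337 and 367 in HET 1 and 2, against 44.6 to 62.8 in FL, so that HET 1 and 2 stood out. Of these 5 genes none was called for genotype by limma.

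Across all 22458 genes tested for heterozygous against FL, limma called 1122 higher (5.0%) and 1798 lower (8.01%) at a Benjamini-Hochberg adjusted p under 0.05. With HET 1 and 2 left out, 2095 were higher and 2707 lower, and without FL 1 the counts were 559 and 599, so leaving out libraries of either genotype moved them. Of the 12 leading higher genes, limma tested 10 and called 0, with 4 at an unadjusted p under 0.05 and a smallest adjusted p of 0.0513 for Retnlg. On reads recovered from the table, edgeR called 3 of the 10 it tested, namely Mmp8, Mmp9 and Retnlg, and DESeq2 called 9 of 12. The 5.0% and 8.01% above are limma's and do not serve as shares for edgeR or DESeq2. The leading genes were chosen by their values in the heterozygous libraries, so their calls are only a description. Of the 12 leading lower genes, limma called Xlr higher and Igf2bp3 lower in heterozygous libraries. DESeq2 called only Xlr, and edgeR called 0 of the 11 it tested, with 2 at an unadjusted p under 0.05.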

How the data were processed

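Bone marrow RNA of 5 Nup214fl/+,Tie2-Cre (HET) and 5 Nup214fl/+ (FL) libraries was measured. Per the labels' protocols it was extracted with the miRNeasy kit, amplified by Geo-seq and made into libraries with the TruePrep kit, with no molecular identifiers described. The submitters' processing notes name Bowtie 0.12.9, Cufflinks 2.1.1, HTSeq, DESeq2 and build mm10, without roles. The deposited table holds a normalized signal per gene: values in a library are whole multiples of 1 step (within 0.01 for 100% of values in 8 libraries, 99.9961% in HET 1 and 99.9958% in HET 2), as read counts divided by 1 factor per library give, and reads were recovered from the steps. The annotation is not given in the sources used here; 49806 of 52171 gene names matched GENCODE M21.

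HET 3, 4 and 5 and HET 1 and 2 were compared on log2(value + 1) for genes at 1 or more in at least 2 of 5 HET libraries, without a test. HET against FL was tested with limma 3.58.1 in R 4.3.3 on the same scale, for genes at 1 or more in at least 5 libraries, with Benjamini-Hochberg adjustment and a threshold of 0.05; edgeR 4.0.16 and DESeq2 1.42.0 on recovered reads, pseudocounts, filters, scalings and left-out libraries were the alternatives. Other steps used Python 3.11.15 with numpy 2.4.6, pandas 2.3.3, scipy 1.17.1 and matplotlib 3.10.9. Scripts were tested on simulated data. p-values measure the spread between libraries, which may be technical.

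The library sets, members and gene lists were chosen with earlier results of these data known. Named were Nup214, Retnlg, Mpo, Hba-a1, Cdkn1a, in each direction the 12 annotated, non-pseudogene set-apart genes with the largest gap between nearest libraries and a mean of at least 100 in the higher set, and up to 4 members per list with the largest gap. All other genes, Kit, Cd34, Hlf, Procr, Cebpe, Ly6c2, Ppbp, Pax5, Xist and Pcdh11x among them, were chosen after their values were seen. Results for a few genes are not reported here.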

Additional observations from a re-analysis of the deposited data

Results flagged for a closer look

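Each value here is the gap between 1 library and its nearest neighbour as a share of the range over the 5 libraries of its genotype, reported where it passed Dixon's limit of 0.71. Of 313 groups tested 10 passed, and chance passes about 1 in 20.

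In HET, library 1 was lowest for the platelet genes Pf4, at 0.954 against 4.09 to 6.15 in the other 4 (0.737), and Gp1bb, at 0 against 5.72 to 12.7 (0.728). HET 3 had the lowest mean log2 over G1/S and DNA replication genes, 11.18 against 11.39 to 11.42 (0.845).

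In FL, library 1 stood apart for 4 genes. It was highest for Ly6d and Hspb1, each at 0.992 against 0 in the others (1), and for Kdm5d at 16.9 against 5.22 to 6.56 (0.815) and for Uty at 25.8 against 6.56 to 9.39 (0.749). FL 5 was highest for Ighv11-2 at 1.31 against 0 in the others (1). FL 4 was highest for Cdkn2b at 5.22 against 1.31 to 1.98 (0.741). FL 2 was lowest for Phgdh at 423 against 559 to 612 (0.754). Several of these values are 1 to 4 reads.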

How the results depend on the processing

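The counts of set-apart genes, 1784 higher and 1506 lower in HET 3, 4 and 5, stayed within 1.5 times under a pseudocount of 0.1, no filter, quantile normalization and TMM scaling. They were 962 and 356 with a pseudocount of 10, which took the share that was higher to 73.0%, against 54.2%; 608 and 198 with a mean of at least 100 asked over the HET libraries; and 621 and 227 with a log2 difference of at least 2. Leaving out 1 HET library gave 2007 to 2423 higher and 1648 to 3054 lower, where fewer libraries make it easier not to overlap; 3054 came without HET 2. Quantile normalization moved the median of all genes to -0.10.

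Counts of genes called higher in HET than FL, 1122, and of genes called lower in HET than FL, 1798, were less steady. They were 726 and 536 after quantile normalization, 1028 lower with a pseudocount of 0.1, 1119 lower with no filter and 808 lower in edgeR. With HET 1 and 2 left out, added after seeing the data, they were 2095 and 2707. Leaving out 1 library gave 559 to 1313 higher and 599 to 2250 lower: without FL 1, 2, 3 and 5 the higher count was 559, 727, 718 and 653, and without FL 1, FL 2, FL 5 and HET 5 the lower count was 599, 1109, 762 and 1014. The cause was not tested.

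Replicate numbers did not pair libraries: same-numbered libraries correlated at 0.08169, 0.01084, -0.01245, -0.09045 and -0.06501, and 1 of 5 matched its own number best. With the replicate block, genes called higher in HET than FL numbered 703 and genes called lower in HET than FL 945, and Nup214 kept -0.92 with an exact paired p of 0.0625, the smallest that 5 pairs allow. Without 1 library Nup214 lay between -0.999 and -0.830. Of 1265 recomputed values of 119 named genes, 1167 moved by less than the spread between libraries, 98 by more, and 0 reversed. Much of this was fixed in advance. All named genes but Nup214 were chosen as set apart, so leaving out 1 HET library could not reverse them. The filter settings leave a gene's difference as it is, so those values could not move. Genes at a few reads are limited by depth.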
